A study of Homo sapiens with 12 samples.

Results

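Target genes of p53 listed under growth arrest were followed in LNCaP prostate cancer cells transfected with SRRM4, LSD1 or LSD1+8a. SRRM4 is a splicing factor, and LSD1+8a is a splice isoform of the demethylase LSD1. The p53 targets were CDKN1A, BTG2, CCNG1, MDM2, PPM1D, RRM2B, SESN1, TP53INP1 and GDF15, not all of which stop the cell cycle themselves. They were taken by symbol, and all 9 were present among the 13001 genes of the deposited count and TPM tables. RNA-seq of polyadenylated RNA gave 12 libraries in 4 groups of 3, from LNCaP clone FGC at passage 8, a line grown from a lymph node metastasis. Every group, the control included, was transiently transfected with a lipid reagent and had its medium changed after 6 hours: EV with an empty vector, the LSD1 group with LSD1, the LSD1+8a group with the isoform that holds microexon 8a, and the SRRM4 group with SRRM4. The vector backbone and promoter are not given in the sources used here. The labels give neither the time of harvest nor the share of cells that took up the construct, so each library is read as a mixture of transfected and untransfected cells of 1 line. Nor do they state if the 3 replicates were grown and transfected separately, and the p-values therefore reflect replicate spread that could be technical in origin.

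The tumour suppressor p53 is a transcription factor that is kept scarce by the ubiquitin ligase MDM2 and released by DNA damage and other stress. It then raises genes that hold cells out of division, chief among them CDKN1A, whose product p21 inhibits cyclin-dependent kinases, together with genes that feed back on p53 itself, supply nucleotides for repair or restrain growth signalling.

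Library totals over the listed genes ran from 10876293 to 13570740 counts, and the SRRM4 libraries held the 3 lowest totals (10876293 to 11485489). KDM1A, the gene of LSD1, followed the labels: it stood at 93.7 to 95.2 CPM (counts scaled by library total and TMM factor) in EV, 515 to 587 in LSD1, 1983 to 2608 in LSD1+8a and 92.0 to 100.1 in SRRM4. The SRRM4 transcript was not analysed here, as 0 rows bear its symbol. All 15 listed markers of LNCaP and luminal prostate cells were measured, and their summed level was 10094 to 10299 CPM in EV, 10169 to 10409 in LSD1, 9882 to 10242 in LSD1+8a and 9164 to 9232 in SRRM4. Of 9 fibroblast markers 2 were in the table (22.4 to 26.5 CPM summed in EV, 23.7 to 32.0 in SRRM4), as were 2 of 8 leukocyte and endothelial (27.3 to 29.1 and 22.0 to 28.1) and 2 of 6 basal markers (57.3 to 59.1 and 48.1 to 52.0). The part of these shifts in the results below was not tested.

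p53 binds a pair of adjacent 10-base elements, and start-site windows of 300 bases (250 before and 50 after the start) were searched for that consensus, because this is the sequence p53 is known to contact. RefSeq windows (build GRCh38.p14, not the hg19 build of the counts) were found for 7 of the 9 genes (not TP53INP1 and RRM2B), 13 windows in all. A match was a 20-base run with at most 3 mismatches and the fixed C and G of each element in place, and since the consensus is its own reverse complement, 1 pass covers both strands. Matches were found in 4 of the 13 windows, of MDM2 (2 overlapping windows with 1 site), SESN1 and GDF15, and in 1.12% of all 35116 windows. The sites are in capitals, within 80 bases of their surroundings for MDM2 and SESN1:
MDM2: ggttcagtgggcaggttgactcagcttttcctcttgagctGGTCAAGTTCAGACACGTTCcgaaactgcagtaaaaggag
SESN1: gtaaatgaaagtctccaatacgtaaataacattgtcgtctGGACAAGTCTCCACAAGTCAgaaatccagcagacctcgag
GDF15: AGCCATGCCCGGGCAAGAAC
The MDM2 stretch is chr12:68808883-68808962 on the plus strand. Its site begins 94 bases before the nearer of the 2 internal start sites it precedes, the promoter of MDM2 that is known to answer to p53, and has 2 mismatches. The SESN1 stretch is chr6:109008998-109009077, printed from the minus strand. Its site begins 49 bases before the most internal of 3 annotated starts, and its 3 mismatches all lie in the second element. The GDF15 site is chr19:18386186-18386205 on the plus strand, 29 to 48 bases after the start, inside annotated exons, and has 3 mismatches. No match was found in the windows of CDKN1A, BTG2, CCNG1 and PPM1D, which says only that no such run lies in these 300 bases. A match is a description of the sequence and was not tied to the counts.

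With SRRM4, 6 of the 9 genes were higher than with the empty vector, 1 was lower and 2 were not called. CDKN1A, which encodes p21, rose by a factor of 2.0 (95% interval 1.91 to 2.09). PPM1D, BTG2 and MDM2 rose by factors of 1.53, 1.48 and 1.45, and TP53INP1 and RRM2B rose by 19.2 and 13.7%. SESN1 fell by 9.89%. Among all 13001 genes 4.47% were higher and 3.22% lower in this comparison (edgeR quasi-likelihood test, adjusted p under 0.05). These were 581 higher and 418 lower genes, and with upper-quartile scaling 497 and 561, while the 9 genes gave 6 and 1 under both. All 3 SRRM4 libraries lay above all 3 EV libraries for 6 of the 9 genes and below them for 1, against 13% and 12.3% of all genes. The median log2 fold change was 0.25 over the 9 genes and -0.0011 over all genes. In bulk RNA a change in more cells and a larger change per cell cannot be told apart, and with transient transfection this holds for every value here.

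**Figure D1:**
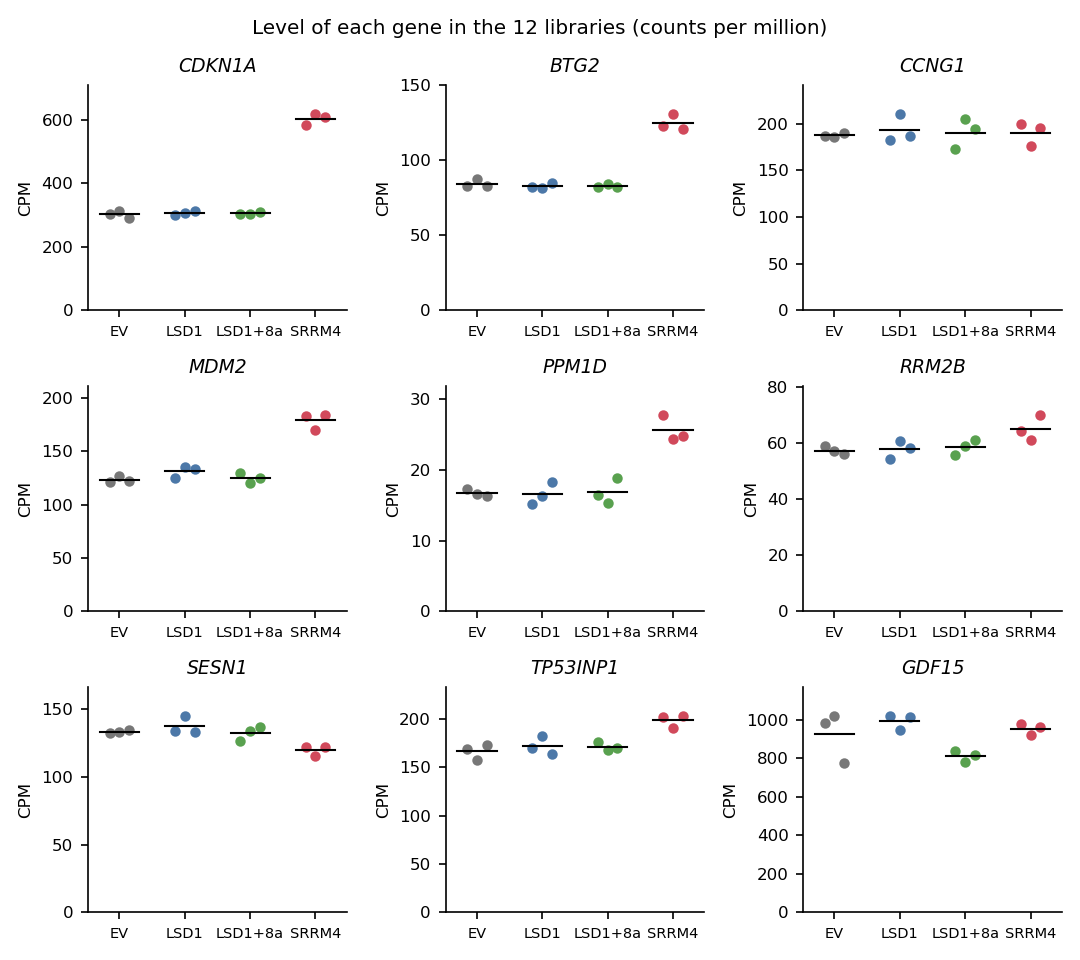
Level of each gene in CPM (vertical axes, from 0) in the 3 libraries of each group, with a bar at the group mean. CDKN1A stands at 583 to 618 in SRRM4 and at 290 to 311 in the other groups, while SESN1 is lowest in SRRM4 and GDF15 has 1 empty-vector library, at 776, far below the other two.

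Of the proteins that act on the cell cycle and growth, CDKN1A and BTG2 rose and CCNG1 was not called. CDKN1A stood at 305, 311 and 290 CPM in EV replicates 1, 2 and 3, at 299, 308 and 311 in LSD1, at 302, 304 and 309 in LSD1+8a, and at 583, 618 and 608 in SRRM4. Every SRRM4 library was thus far above all 9 others, which lay within a narrow band. The log2 fold change over EV was 1.0 (SE 0.03, adjusted p = 4.89e-23), and by p CDKN1A ranked 2 among all genes. Of the 9 genes it alone also passed a test against a 1.5-fold change (edgeR glmTreat, adjusted p = 6.03e-13). BTG2, an antiproliferative protein that recruits the deadenylation machinery to mRNAs, stood at 82.6, 87.5 and 83.1 CPM in EV, 82.0, 81.5 and 84.6 in LSD1, 82.3, 84.2 and 81.8 in LSD1+8a, and 122, 131 and 121 in SRRM4. Again only the SRRM4 libraries stood apart, and the log2 fold change was 0.56 (SE 0.04, adjusted p = 1.4e-12). CCNG1, the atypical cyclin G1, stood at 187, 186 and 190 CPM in EV and at 199, 176 and 196 in SRRM4, so the groups overlapped. Its log2 fold change was 0.02 (95% interval -0.14 to 0.19, adjusted p = 0.918). CCNG1 libraries also spread widely in LSD1 (182, 210 and 187 CPM) and LSD1+8a (173, 205 and 194 CPM).

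MDM2 and PPM1D, whose products feed back on p53, rose. MDM2, the ligase that degrades p53, stood at 121, 127 and 122 CPM in EV, 124, 135 and 134 in LSD1, 130, 120 and 125 in LSD1+8a, and 183, 169 and 184 in SRRM4. The lowest SRRM4 library, replicate 2, was still well above the highest of the others, LSD1 replicate 2, and the log2 fold change over EV was 0.54 (SE 0.04, adjusted p = 2.51e-12). PPM1D, the phosphatase WIP1 that reverses damage signalling to p53, had the lowest level of the 9 genes per transcript length as well as in counts. It stood at 17.3, 16.5 and 16.4 CPM in EV, 15.2, 16.3 and 18.3 in LSD1, 16.4, 15.3 and 18.8 in LSD1+8a, and 27.8, 24.4 and 24.8 in SRRM4. The SRRM4 libraries were all higher than the rest, with a log2 fold change of 0.62 (SE 0.086, adjusted p = 3.61e-06). Of the 9 genes only GDF15 had a larger error in this comparison (SE 0.092). The intervals of MDM2 (0.46 to 0.62), PPM1D (0.44 to 0.79) and BTG2 (0.48 to 0.65) overlap one another and lie below that of CDKN1A (0.93 to 1.06), but the differences between genes were not tested.

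Genes of repair, stress metabolism and autophagy moved less, and in both directions. TP53INP1, a nuclear protein that promotes p53 phosphorylation and autophagy, stood at 170, 158 and 173 CPM in EV, 170, 182 and 164 in LSD1, 176, 169 and 170 in LSD1+8a, and 202, 191 and 203 in SRRM4. Its SRRM4 libraries were the 3 highest, with a log2 fold change of 0.25 (SE 0.04, adjusted p = 2.34e-05). RRM2B, the p53-inducible small subunit of ribonucleotide reductase, stood at 58.7, 56.9 and 56.0 CPM in EV, 54.2, 60.8 and 58.3 in LSD1, 55.6, 59 and 60.9 in LSD1+8a, and 64.2, 61.0 and 69.9 in SRRM4. The lowest SRRM4 library lay just above the highest of the others, and the log2 fold change was 0.19 (SE 0.05, adjusted p = 0.0275). The RRM2B call was lost without EV replicate 2 (adjusted p = 0.0653), EV replicate 3 (0.0924), SRRM4 replicate 1 (0.0597) or SRRM4 replicate 3 (0.218), and also with DESeq2 (0.117) and limma-voom (0.0522).

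SESN1, a sestrin that restrains the growth kinase mTORC1 in response to stress, was the 1 gene that fell. It stood at 132, 133 and 134 CPM in EV, 134, 145 and 133 in LSD1, 126, 134 and 137 in LSD1+8a, and 122, 116 and 122 in SRRM4. All 3 SRRM4 libraries were below every other library, and the log2 fold change was -0.15 (SE 0.04, adjusted p = 0.0162). The SESN1 call was lost without SRRM4 replicate 2 (adjusted p = 0.105), and with DESeq2 (0.0554). GDF15, a secreted stress cytokine that p53 can raise, stood at 983, 1017 and 776 CPM in EV and at 978, 920 and 962 in SRRM4. EV replicate 3 was low, the groups overlapped, and the log2 fold change was 0.04 (95% interval -0.17 to 0.25, adjusted p = 0.853). Without EV replicate 3 it was -0.07 (adjusted p = 0.317).

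**Figure D2:**
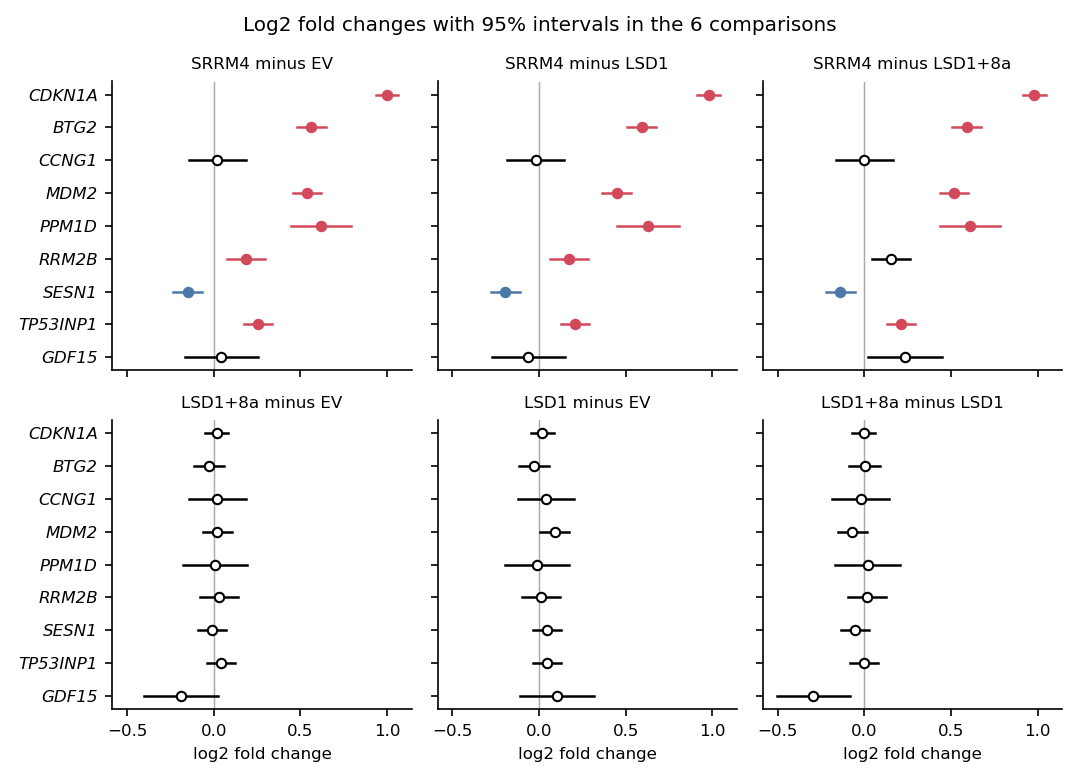
Log2 fold changes (points) with 95% intervals (lines) of the 9 genes in the 6 comparisons; red is called higher, blue called lower and open not called at an adjusted p of 0.05. The top row, in which SRRM4 is compared, holds all the called points, and in the bottom row GDF15 lies farthest from 0, at -0.29 for LSD1+8a minus LSD1.

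Set against the LSD1 libraries in place of the empty vector, SRRM4 gave 6 genes higher and 1 lower (background 4.38% higher and 2.67% lower). The log2 fold changes were 0.98 for CDKN1A, 0.63 for PPM1D, 0.59 for BTG2, 0.45 for MDM2, 0.21 for TP53INP1, 0.17 for RRM2B and -0.19 for SESN1. The RRM2B call was marginal (adjusted p = 0.0484) and was lost in 15 of 24 alternatives, among them without EV replicate 1 (adjusted p = 0.0568), LSD1 replicate 1 (0.226), LSD1 replicate 3 (0.0986), LSD1+8a replicate 2 (0.0522), LSD1+8a replicate 3 (0.0537), SRRM4 replicate 1 (0.0858) or SRRM4 replicate 3 (0.283), and with a block for replicate number (0.0571). CCNG1 (-0.02) and GDF15 (-0.06) were not called.

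Against LSD1+8a, SRRM4 gave 5 genes higher and 1 lower (background 4.42% higher and 3.17% lower). CDKN1A was higher by 0.98 on the log2 scale, PPM1D by 0.61, BTG2 by 0.59, MDM2 by 0.52 and TP53INP1 by 0.21. SESN1 was lower (-0.14, adjusted p = 0.0299), a call that was lost without LSD1+8a replicate 2 (0.0975), LSD1+8a replicate 3 (0.166), SRRM4 replicate 2 (0.161) or SRRM4 replicate 3 (0.0554), with DESeq2 (0.0941), with limma-voom (0.0513) and on TPM (0.128 and 0.131 with pseudocounts of 1 and 0.1). RRM2B was not called (0.15, adjusted p = 0.0757), but passed without SRRM4 replicate 2 (0.0456). These comparisons share the 3 SRRM4 libraries with each other and with the one against the empty vector, so their values stand side by side and are not independent.

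Neither form of LSD1 gave a called change in any of the 9 genes. With LSD1+8a against EV 0 of 9 were called by edgeR, DESeq2 or limma-voom, and the background was 0.346% of genes. An unadjusted p of 0.05 was passed by 0 of the 9 and by 6.82% of all genes. The 95% interval for CDKN1A ran from -3.42 to 5.87%, for MDM2 from -4.36 to 7.43%, for BTG2 from -7.66 to 4.17% and for SESN1 from -6.14 to 4.88%. PPM1D had a wider interval (-11.5 to 14.1%). The point estimate with SRRM4 lay outside the interval for each of these 5 genes. For SESN1, however, the interval with SRRM4 (-14.9 to -4.59%) overlapped that with LSD1+8a. With LSD1 against EV 0 of 9 were called by any of the 3 tools (background 0.1%). An unadjusted p of 0.05 was passed by 1 of the 9 and by 5.89% of all genes. That gene was MDM2, 6.4% above EV (95% interval 0.387 to 12.8%, adjusted p = 0.804), named after its value was seen. CDKN1A lay within -3.20 to 6.14% of EV. The median log2 fold change of the 9 genes was 0.02 with LSD1+8a and 0.04 with LSD1, against 0.0009 and 0.0019 over all genes.

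GDF15 was the gene in which the LSD1 forms came closest to a difference. It stood at 1020, 948 and 1016 CPM in LSD1 and at 838, 779 and 817 in LSD1+8a, so that the groups did not overlap (all 3 libraries were lower in 5.51% of genes). The log2 fold change of LSD1+8a against LSD1 was -0.29 (95% interval -0.51 to -0.08), which was not called in the fit of all 12 libraries (adjusted p = 0.606). None of the 9 genes was called there by edgeR, DESeq2 or limma-voom, and the background was 0.323%. An unadjusted p of 0.05 was passed by 1 of the 9, GDF15, and by 6.21% of all genes. The fit shares its estimate of spread between groups, and EV replicate 3 enters this comparison only through that estimate. Without that library the adjusted p was 4.07e-07, and it was 3.19e-06 in a fit of the LSD1 and LSD1+8a libraries alone, with log2 fold changes of -0.29 in both. Without EV replicate 3 GDF15 was also lower in LSD1+8a than in EV (-0.30, adjusted p = 1.38e-06, against -0.19 and 0.761 with it) and higher in SRRM4 than in LSD1+8a (0.23, adjusted p = 9.2e-06, against 0.23 and 0.193 with it). This last call was also made by limma-voom (adjusted p = 0.0372) and in a fit of the SRRM4 and LSD1+8a libraries alone (8.75e-06). KDM1A was 4.20-fold higher in LSD1+8a than in LSD1, so isoform and amount cannot be told apart.

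Levels of different genes can be ranked only per length, in the deposited TPM (an abundance scaled by transcript length and library). With the empty vector GDF15 led at 1137 ± 158 TPM (SD, n = 3), above 99.1% of genes, followed by CCNG1 at 226 ± 6.94 and CDKN1A at 193 ± 6.69. TP53INP1 (83.2 ± 3.90) and SESN1 (83.0 ± 1.97) overlapped. MDM2 (56.3 ± 0.873), BTG2 (45.7 ± 1.26), RRM2B (28.6 ± 2.13) and PPM1D (7.52 ± 0.257) followed without overlap between neighbours, PPM1D above only 25% of genes. The order was the same in LSD1 and LSD1+8a apart from the overlapping pair. In SRRM4 CDKN1A passed CCNG1, at 398 ± 12.1 against 225 ± 2.62 TPM, and MDM2 (83.4 ± 1.58) passed SESN1 (71.6 ± 4.15), which then overlapped BTG2 (68.4 ± 2.75). On log2(TPM + 1) with limma-trend 4 of the 9 genes kept their calls against EV, namely CDKN1A, BTG2, MDM2 and PPM1D. TP53INP1 (0.17, adjusted p = 0.257), RRM2B (0.17, adjusted p = 0.416) and SESN1 (-0.21, adjusted p = 0.0533) did not.

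**Figure D3:**
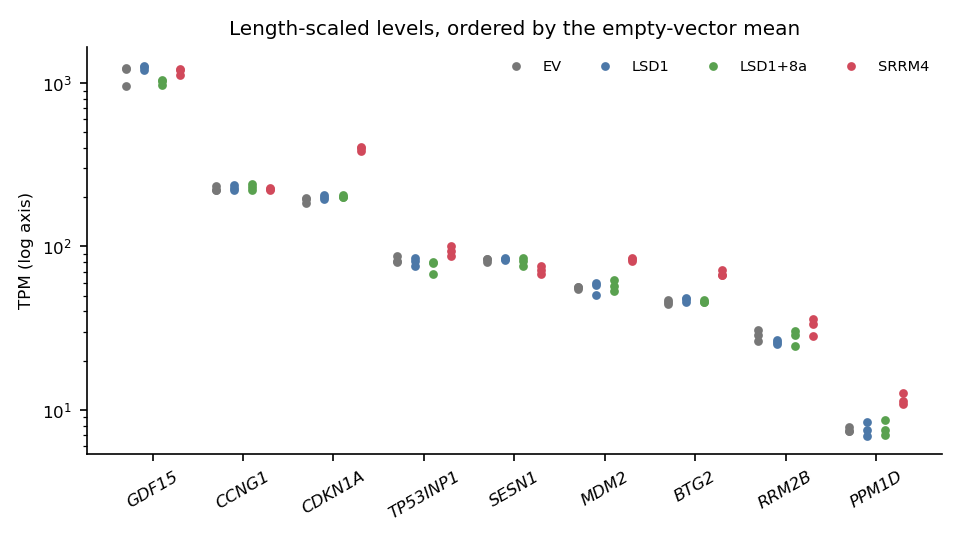
Deposited TPM (vertical log axis) of each gene in the 3 libraries of each group, with genes ordered by the empty-vector mean. CDKN1A is the third gene in EV, at 193, and passes CCNG1 in SRRM4, at 398.

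If counts and TPM came from the same run, which the sources do not state, they differ by the length of the transcripts assigned to a gene. On that condition their ratio gives an implied length, which was compared between groups with limma-trend. None of the 9 genes was called in any of the 3 comparisons with EV (background 0.00771% with SRRM4 and with LSD1, 0.0231% with LSD1+8a). For CDKN1A with SRRM4 the log2 ratio was -0.03 (95% interval -0.06 to 0.0027), and for MDM2 it was -0.0073 (-0.12 to 0.11). The widest uncertainty was in RRM2B (0.03, interval -0.24 to 0.30). At an unadjusted p of 0.05, TP53INP1 passed with LSD1+8a (0.22, adjusted p = 0.925) and MDM2 with LSD1 (0.14, adjusted p = 0.64), and none passed with SRRM4. The share of all genes passing that unadjusted threshold was not computed, so these passes are not read as a result about either gene. In simulated data this comparison recovered 29% of 1.1-fold and 66% of 1.3-fold shifts, so small changes in transcript length were not detectable.

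The families to which the 9 genes belong hold other members, and some of these are tied to p53 as well. SESN2, MDM4 and RRM2 also stand in lists given below (RRM2 in that of the cell-cycle genes) and are counted there again. Of 20 listed relatives 19 were measured, and with SRRM4 4 were higher and 3 lower than EV (median -0.0081). Among all genes 4.47% were higher and 3.22% lower. The sestrins moved in opposite directions: SESN2, which is induced by both p53 and ATF4, rose from 75.7 ± 2.73 to 109.6 ± 3.97 CPM (0.53, adjusted p = 3.4e-11) and SESN3 from 107 ± 3.67 to 122 ± 8.39 (0.19, adjusted p = 0.0112), while SESN1 fell. The ribonucleotide reductase subunits were also split, since RRM1, the large subunit, fell from 182 ± 8.21 to 166 ± 4.47 CPM (-0.13, adjusted p = 0.0174), and RRM2, the small subunit of dividing cells, fell from 132 ± 3.56 to 121 ± 5.53 (-0.13, adjusted p = 0.041), while RRM2B rose. RRM2, named after its value was seen, was also called lower over LSD1 (-0.20) and LSD1+8a (-0.15), where RRM1 was not called (-0.09 and -0.07). TP53INP2, an autophagy protein like TP53INP1, rose as that gene did (0.23, adjusted p = 0.0053). The remaining called relatives, named after their values were seen, were GDF11, which was higher, and CDKN1B, which was lower while CDKN1A rose. MDM4, the partner of MDM2 in restraining p53, was at 0.16 over EV (adjusted p = 0.0771) and was called higher over LSD1 (0.19, adjusted p = 0.0297).

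**Figure D4:**
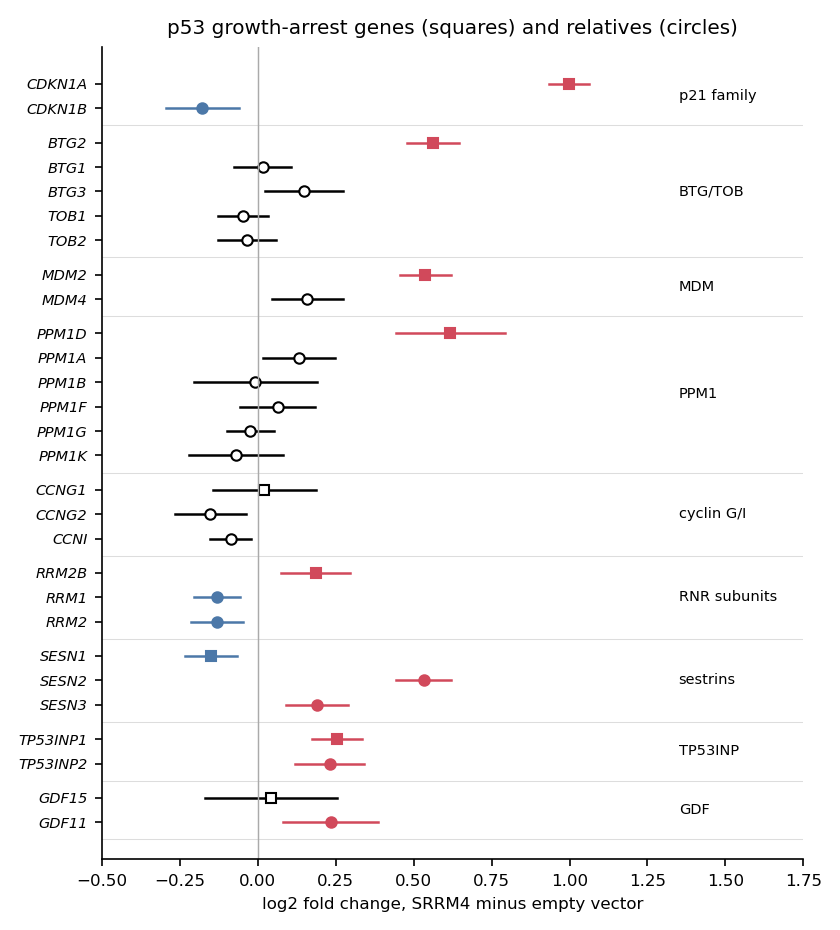
Log2 fold change of SRRM4 minus the empty vector (horizontal axis, with 95% intervals) for the p53 growth-arrest genes (squares) and relatives (circles), grouped by family; red is called higher, blue called lower and open not called. Within the sestrins SESN2 lies at 0.53 and SESN3 at 0.19, whereas SESN1 lies at -0.15.

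Regulators of p53 other than MDM2 and PPM1D, which are described above, were listed apart. Of 28 listed genes of p53 and its regulators 27 were measured, of which edgeR called 0 for SRRM4 over EV (median 0.01). An unadjusted p of 0.05 was passed by 5 of them, against 20.8% of all genes. Those with the smallest p were the acetyltransferase KAT5 (-0.21, adjusted p = 0.0533), CDKN2A, which encodes the MDM2 inhibitor ARF among its products (0.22, adjusted p = 0.0609), the kinase HIPK2 (-0.10, adjusted p = 0.071) and MDM4. CDKN2A was called higher for SRRM4 over LSD1+8a (0.24, adjusted p = 0.0459), as MDM4 was over LSD1.

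Some other p53 targets rose too, where 4.47% of all genes were higher and 3.22% lower with SRRM4. Of 28 further arrest and repair targets 26 were measured, and 15 were not called, 1 was lower and 10 were higher (median 0.14). They included ZMAT3, an RNA-binding p53 target (from 27.7 ± 2.40 to 45.8 ± 2.56 CPM, 0.73), the phosphatase DUSP14 (0.60), the cell-cycle regulator SERTAD1 (from 5.87 ± 0.402 to 13.2 ± 0.84 CPM, 1.16) and SESN2. The 1 lower gene was GADD45G, named after its value was seen. Of 28 targets of death and redox 25 were measured, and 12 were higher, 0 lower and 13 not called (median 0.25). SERPINB5, the serpin maspin, had a log2 fold change of 2.04, the oxidoreductase TP53I3 1.67, ferredoxin reductase FDXR 0.67 and PIDD, a death-domain protein, 0.57. With LSD1+8a and with LSD1 edgeR called 0 genes of these lists, and at an unadjusted p of 0.05 1 arrest gene passed in each, with 0 and 2 of the death and redox list, shares that stand beside 6.82% and 5.89% of all genes. With LSD1+8a the medians were 0.02 for the arrest and repair list and 0.0053 for the death and redox list (all genes 0.0009). With LSD1 they were 0.03 and 0.07 (all genes 0.0019). Shifts of the list medians were not tested.

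Cell-cycle genes known to be repressed downstream of p21 were lower in part. All 40 were measured, and 8 were lower, 0 higher and 32 not called with SRRM4 (median -0.05). Of all genes 3.22% were lower and 4.47% higher. TOP2A, which untangles replicated DNA, fell from 166 ± 3.96 to 138 ± 7.94 CPM (-0.26, adjusted p = 1.67e-05), the chromatin protein HMGB2 from 176 ± 2.07 to 151 ± 5.0 (-0.22), the spindle factor TPX2 from 130 ± 0.192 to 114 ± 2.27 (-0.18) and the kinetochore protein CENPF from 163 ± 5.37 to 145 ± 3.0 (-0.17). Fewer of the 40 were lower for SRRM4 over LSD1+8a (4) and over LSD1 (5), where 3.17% and 2.67% of all genes were lower. TOP2A was called in both, HMGB2 only over LSD1+8a, CENPF only over LSD1 and TPX2 in neither. Genes of ATF4 and the integrated stress response, which can raise SESN2 and GDF15 without p53, went both ways. Of 26 listed 25 were measured, with 3 higher, 6 lower and 16 not called (median -0.10), beside the same shares of all genes. SESN2 was among the higher ones, while the pseudokinase TRIB3 (-0.41), the glycoprotein hormone STC2 (-0.28) and the serine synthesis enzyme PSAT1 (-0.20) fell. Of the 15 LNCaP markers 7 were lower in the same libraries, 1 was higher and 7 were not called. The higher one was KRT8, named after its value was seen, and the lower ones included KLK3 (-0.23), ACPP (-0.45) and FOLH1 (-0.15). VWF (-0.29) and the integrin ITGA6 (-0.23) were also lower, whereas COL1A1 (0.12), COL3A1 (0.28), CD68 (0.20) and KRT14 (0.27) were not called.

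**Figure D5:**
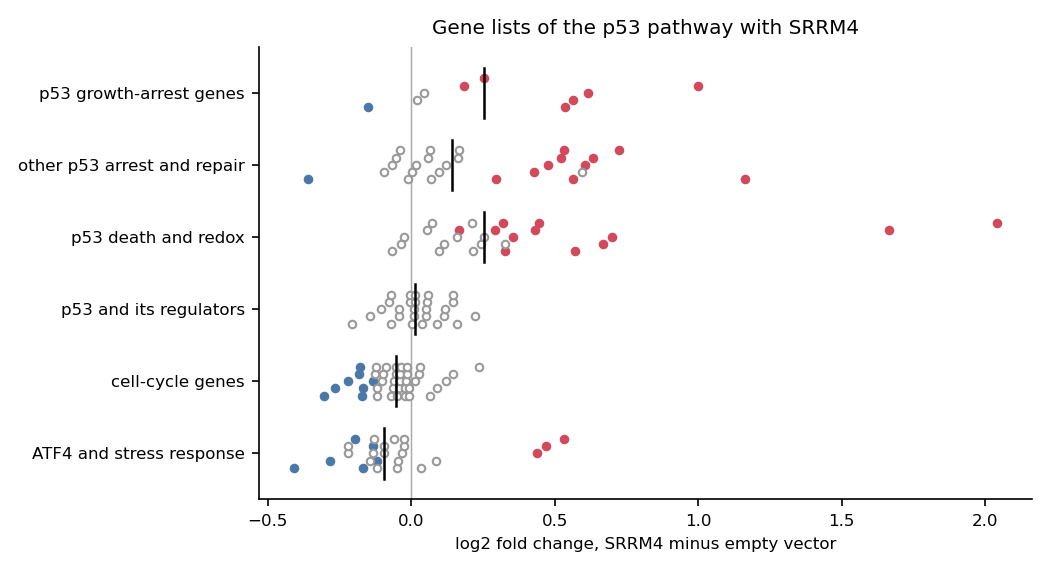
Log2 fold change of SRRM4 minus the empty vector (horizontal axis) for each measured gene of 6 lists; red is called higher, blue called lower, open not called, and the black bar is the list median. The 3 lists of p53 targets have medians of 0.25, 0.14 and 0.25, and the regulators of p53 0.01.

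Across the 4 groups the genes with the profile nearest to that of CDKN1A (Euclidean distance between group means of log2 CPM, each gene centred on its own mean, among 13000 other genes) were TUBB3, a neuronal tubulin (distance 0.0741), the Wnt modulator KREMEN2 (0.112), SERTAD1 (0.113), CEP85L (0.127) and the channel HCN2 (0.137). TUBB3 stood at 18.5 CPM in EV, 18.9 in LSD1, 18.1 in LSD1+8a and 35 in SRRM4. KREMEN2, SERTAD1, CEP85L and HCN2 were low, at 4.89, 5.87, 3.65 and 4.39 CPM in EV, against 302 for CDKN1A. Their profiles are therefore less certain. For SESN1 the nearest were HACE1 (0.00932), SH3TC1 (0.0109), CAB39 (0.0127), KCTD15 (0.0135) and OXR1 (0.0138), none of which was called for SRRM4 over EV (adjusted p = 0.0604 to 0.479).

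The authors' deposited table gave nearly the same log2 fold changes for SRRM4 over EV: 1.0 for CDKN1A, 0.62 for PPM1D, 0.56 for BTG2, 0.54 for MDM2, 0.25 for TP53INP1, 0.19 for RRM2B and -0.15 for SESN1. In that table the adjusted p was 1.61e-183 for CDKN1A, 0.117 for RRM2B and 0.0554 for SESN1, so RRM2B and SESN1 did not pass 0.05 there. The values of RRM2B and SESN1 equal those of the DESeq2 alternative run here on the same libraries. The deposited table is therefore no separate evidence.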

How the data were processed

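Counts per gene (whole numbers, deposited) for 12 libraries were used as given. TPM per gene, also deposited, came from a second table, and the authors' deposited comparison table held log2 fold changes, p-values and adjusted p-values against EV. STAR 2.5.3a, RSEM 1.2.31 and the build hg19 are listed in the submitters' processing notes, which assign them no step.

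The members, lists and tests were chosen with earlier results of these data known. All 9 genes passed edgeR's filterByExpr, which removed none of 13001 genes. After TMM scaling, 1 edgeR model (version 4.0.16, R 4.3.3) held all 12 libraries, and each contrast was tested by quasi-likelihood with robust fitting. A gene was called where its p, adjusted by Benjamini-Hochberg across the whole table, was under 0.05. SE and 95% intervals derive from the F statistic. Simulation recovered 22, 54, 84 and 98% of 1.15, 1.25, 1.5 and 2-fold changes for SRRM4 against EV, with 2.27% false calls. In the other comparisons false calls were 3.55 to 8.9%, the highest for LSD1+8a against EV. The simulation changed 200 genes, fewer than the 999 called for SRRM4 against EV, so recovery in the data can differ. Replicate pairs exceeded Poisson noise (chi-square per degree of freedom 1.44 to 2.88), so no pair was counted as 1 library. Beside the 9 genes, text names KDM1A, up to 4 genes of each other list by smallest p with SRRM4, and 5 genes most like CDKN1A and SESN1; some items that this rule names are not reported here. Likeness was sought among genes averaging 0 or more in log2 CPM. Alternatives were other scaling factors, no filter or a stricter one, KDM1A removed, a replicate block, 2-group fits, each library left out, a 1.5-fold threshold, DESeq2 1.42.0, and limma 3.58.1 as voom and on TPM. The implied length was log2(count/TPM), centred by library and tested with limma-trend. The motif search was set up after seeing the data.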

Additional observations from a re-analysis of the deposited data

How the results depend on the processing

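CDKN1A, BTG2, MDM2 and PPM1D kept their direction and call for SRRM4 over EV under every alternative run, except that of these only CDKN1A passed a test against a 1.5-fold change; the calls of RRM2B, SESN1 and TP53INP1 depended on single libraries (RRM2B and SESN1), on the test (RRM2B and SESN1) or on the unit, as given in the report. Among the 9 genes, SRRM4 over EV gave 7 calls, but 4 and 4 on log2(TPM + 1) and log2(TPM + 0.1) and 1 against 1.5-fold (6 to 7 with a library left out). SRRM4 over LSD1 gave 7, but 4, 4 and 1 (6 to 7). SRRM4 over LSD1+8a gave 6, but 1 against 1.5-fold (5 to 7). LSD1+8a over EV and over LSD1 gave 0, with 0 to 1 when a library was left out; the 1 was GDF15 without EV replicate 3, and over LSD1 also 1 with only both groups in the fit. Over all genes, SRRM4 over EV called 999, but 563 with DESeq2, 325 and 323 on TPM, and 40 against 1.5-fold (661 to 1133 with a library left out, the lowest without SRRM4 replicate 2). SRRM4 over LSD1+8a called 986, but 529, 205, 201 and 24 (561 to 1081). SRRM4 over LSD1 called 916, but 499, 182, 178 and 35 (488 to 1001). LSD1+8a over EV called 45, but 24 and 22 on TPM and 15 against 1.5-fold (34 to 66). LSD1+8a over LSD1 called 42, but 21, 19 and 13 (29 to 45). LSD1 over EV called 13, but 6, 6 and 2, and 20 with only both groups in the fit (5 to 16). The causes were not tested. Small changes were often missed at this depth: for SRRM4 over EV the smallest simulated fold was recovered in 22% of changed genes.

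With a replicate block the 9 genes gave 7 calls for SRRM4 over EV, 6 for SRRM4 over LSD1+8a, 6 for SRRM4 over LSD1 (RRM2B at adjusted p = 0.0571) and 0 in the other comparisons, and all genes gave 887, 871 and 812 calls for SRRM4. Deviations of same-numbered libraries correlated from -0.162 to 0.126 over 18 pairs, with 1 pair over 0.1, and those of other pairs from -0.123 to 0.135, so the numbers were not treated as pairing the libraries.

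Among uncalled log2 fold changes some changed sign, and none of these was called in the reported fit. On log2(TPM + 1) and log2(TPM + 0.1), which follow the transcript length assigned to a gene, signs changed as follows. For LSD1+8a over EV these were BTG2 (-0.028 to 0.012 and 0.012), RRM2B (0.031 to -0.039 and -0.04) and TP53INP1 (0.041 to -0.14 and -0.15). For LSD1 over EV these were BTG2 (-0.0295 to 0.045 and 0.046), MDM2 (0.0895 to -0.013 and -0.013), PPM1D (-0.012 to 0.019 and 0.021), RRM2B (0.013 to -0.13 and -0.13) and TP53INP1 (0.044 to -0.046 and -0.046). For LSD1+8a over LSD1 these were CDKN1A (-0.0035 to 0.011 and 0.011), BTG2 (0.0015 to -0.033 and -0.034), MDM2 (-0.07 to 0.042 and 0.042) and CCNG1 (-0.021 to 0.014 and 0.014). For SRRM4 over EV this was CCNG1 (0.021 to -0.0013 and -0.0013). For SRRM4 over LSD1+8a this was CCNG1 (0.00058 to -0.041 and -0.042). CCNG1 for SRRM4 over LSD1+8a (0.00058) was also at -0.00041 with DESeq2 and -0.0099 with upper-quartile scaling. When each library was left out in turn, some ranges crossed 0. For LSD1+8a over EV, the ranges were those of CDKN1A (-0.013 to 0.038), MDM2 (-0.0091 to 0.047), PPM1D (-0.077 to 0.0697), CCNG1 (-0.034 to 0.089) and SESN1 (-0.038 to 0.022). For LSD1 over EV, the ranges were those of CDKN1A (-0.0096 to 0.043), PPM1D (-0.088 to 0.048), CCNG1 (-0.024 to 0.082), GDF15 (-0.0083 to 0.18) and RRM2B (-0.025 to 0.058). For LSD1+8a over LSD1, the ranges were those of CDKN1A (-0.0196 to 0.0087), BTG2 (-0.011 to 0.018), PPM1D (-0.066 to 0.10), CCNG1 (-0.076 to 0.047), RRM2B (-0.027 to 0.056) and TP53INP1 (-0.035 to 0.038). For SRRM4 over EV, the ranges included CCNG1 (-0.013 to 0.073) and GDF15 (-0.069 to 0.12). For SRRM4 over LSD1+8a, the ranges included CCNG1 (-0.067 to 0.056). For SRRM4 over LSD1, the ranges included CCNG1 (-0.061 to 0.045).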
